A study of Caenorhabditis elegans with 12 samples.

Results

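The ceh genes are homeobox genes of the nematode Caenorhabditis elegans whose names carry the family prefix and a number. They were taken by symbol from the WBcel235 annotation, leaving out ceh-13, which belongs to the Hox cluster, and ceh-22, a pharynx muscle gene. The table of normalised read counts held 61 such genes among 46904, and 43 of them reached 10 in 2 or more of the 12 libraries. These 43 genes are described here, and the 18 others had between 1 and 95 reads in all libraries together. Nearest outside the filter were ceh-31, with a highest value of 11.6, and ceh-62, with a highest value of 10.6, each reaching 10 in 1 library. Nearest inside were ceh-8, ceh-9, ceh-14 and ceh-89, which reached 10 in 4 libraries each.

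Homeobox genes encode transcription factors that bind DNA through a homeodomain, a short folded domain shared across animals. Outside the Hox cluster they fall into classes named for a founding gene or for a second domain that accompanies the homeodomain, such as LIM, POU, CUT, sine oculis and the PBC group of the TALE class. In C. elegans they are known above all for fixing the identity of neurons, and others act in the epidermis, the muscle, the pharynx and the excretory system, or as partners of Hox proteins. Many are active in a few cells of the embryo, and RNA of whole embryos does not separate those cells from others.

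Messenger RNA was sequenced from late-stage embryos of 6 genotypes, in 2 libraries per genotype. N2 served as the wild type. HPL-2, a homolog of heterochromatin protein HP1, was studied in the hpl-2 mutant and in hpl-2 I158A, a point mutant by its name, and LIN-61, a protein with MBT repeats that binds methylated lysine 9 of histone H3, in the lin-61 mutant and in lin-61 hpl-2, a double mutant. A triple mutant, met-2 set-25 set-32, carries mutations in 3 genes for histone H3 lysine 9 methyltransferases or their relatives. The sources used here give neither the alleles nor an age in hours nor a treatment. The embryos of a library were pooled from several plates, and whether both libraries of a genotype had separate cultures is not stated, so p-values reflect the spread between libraries, which may be technical. The comparisons ask how the ceh genes differ when readers or writers of histone H3 lysine 9 methylation are mutated.

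The libraries held 1593546 to 2533102 reads in genes, except replicate 2 of the triple mutant, which held 10243076. A single read was worth 1.56 normalised counts in N2 replicate 1 and 0.222 in that deep library. The genes named in the genotypes were lower where the labels say so. hpl-2 had 30.9 to 49.8 in the hpl-2 and lin-61 hpl-2 libraries and 233.8 to 337 in the others, hpl-2 I158A included. lin-61 had 5.45 to 13.6 in its mutants against 41.4 to 124 elsewhere, and met-2, set-25 and set-32 were lowest in the triple mutant. met-2 was also below N2 in genotypes that do not name it. It had 266.4 and 266.9 in N2, 110.8 and 114.1 in hpl-2 I158A, and 164.4 to 185.4 in hpl-2 and lin-61. In lin-61 hpl-2 it lay above N2, at 274.3 and 304.4. The replicates of the triple mutant stood apart: 44.3% of all 14640 genes past the filter differed by more than 2-fold between them, against 5.78 to 18.6% in the other genotypes. For the ceh genes the same count was 10 of 43 in the triple mutant and 2 to 5 of 43 in the others. Each result is therefore given from all 12 libraries and again without triple-mutant replicate 2.

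Cell type markers that late embryos should carry were present in every genotype, and sperm markers summed to between 2.04 and 18.01 normalised counts over 9 genes. Several marker sums differed between genotypes. The summed level of 12 neuronal genes was 477 to 514 in hpl-2 I158A, 599.7 to 813 in N2, 867 to 931 in hpl-2, 604.5 to 659.7 in lin-61, 597 to 635 in lin-61 hpl-2 and 647 to 1025 in the triple mutant. The summed level of 12 maternal genes of oocytes and early embryos was 5873 to 5969 in hpl-2 I158A, 2243 to 3318 in N2, 2388 to 2492 in hpl-2, 3872 to 3876 in lin-61, 3531 to 3753 in lin-61 hpl-2 and 3060 to 4577 in the triple mutant. The 7 body wall muscle genes summed to 4192 to 4665 in lin-61 hpl-2 and 6459 to 6566 in hpl-2, and the 6 pharynx muscle genes to 633 to 671 and 904 to 919. Both sums of lin-61 hpl-2 lay below hpl-2, while the N2 libraries spanned 4430 to 7290 and 682 to 952. The 10 early zygotic genes summed to 498 to 548 in lin-61 hpl-2, 735 to 801 in hpl-2 I158A and 628 to 732 in N2. The 9 epidermal genes summed to 43311 to 43322 in hpl-2 I158A, 30760 to 40008 in N2 and 35476.5 to 35771 in hpl-2. They summed to 32546 to 34998 in lin-61, 29472 to 33151 in lin-61 hpl-2 and 22829 to 40713 in the triple mutant. In these whole-embryo samples, fewer cells of a type and less RNA per cell cannot be told apart.

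The levels of the 43 genes spanned a wide range. Their means over the 12 libraries ran from 7.38 to 498 normalised counts with a median of 48.7, beside a median of 41.9 over all genes past the filter. Of the 43, 11 had a mean of at least 100 and 16 a mean under 30. Per kilobase of exon, their median was 45.03, against 39.03 for the 11450 protein-coding genes past the filter, and 22 of the 43 lay above that value. Summed over the 43 genes, the normalised counts were 4097 and 3709 in N2, 2985 and 2981 with hpl-2 mutated, 3407 and 3152 for hpl-2 I158A, 3342 and 3247 for lin-61, 3593 and 3720 for lin-61 hpl-2, and 3531 and 4275 in the triple mutant. Both N2 libraries lay above those of hpl-2, hpl-2 I158A and lin-61, and overlapped with those of lin-61 hpl-2 and the triple mutant.

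Per kilobase, ceh-43, the Distal-less gene, came first at 246 normalised counts per kilobase, followed by ceh-20 at 207, which encodes the Pbx-type partner of Hox proteins. Then came ceh-51 at 162, an NK-2-related gene that acts with the T-box factor TBX-35 in the MS mesoderm. ceh-39, at 123, is a CUT gene and one of the X-linked signal elements that lower xol-1 in sex determination. ceh-100 had 118 and ceh-32, which acts in head morphogenesis, had 115.4. The ranges over the 12 libraries overlapped between each neighbouring pair of these 6 genes. These ranges pool all genotypes, and the order of the genes within each library was not compared. The 4 lowest were ceh-14, the LIM gene of the AFD thermosensory and other neurons, at 4.05, ceh-8 of the Rx type at 5.62, ceh-89 at 5.82, and ceh-18, the POU gene of the gonadal sheath, at 5.89. The plot of levels per kilobase shows every gene by class.

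**Figure D1:**
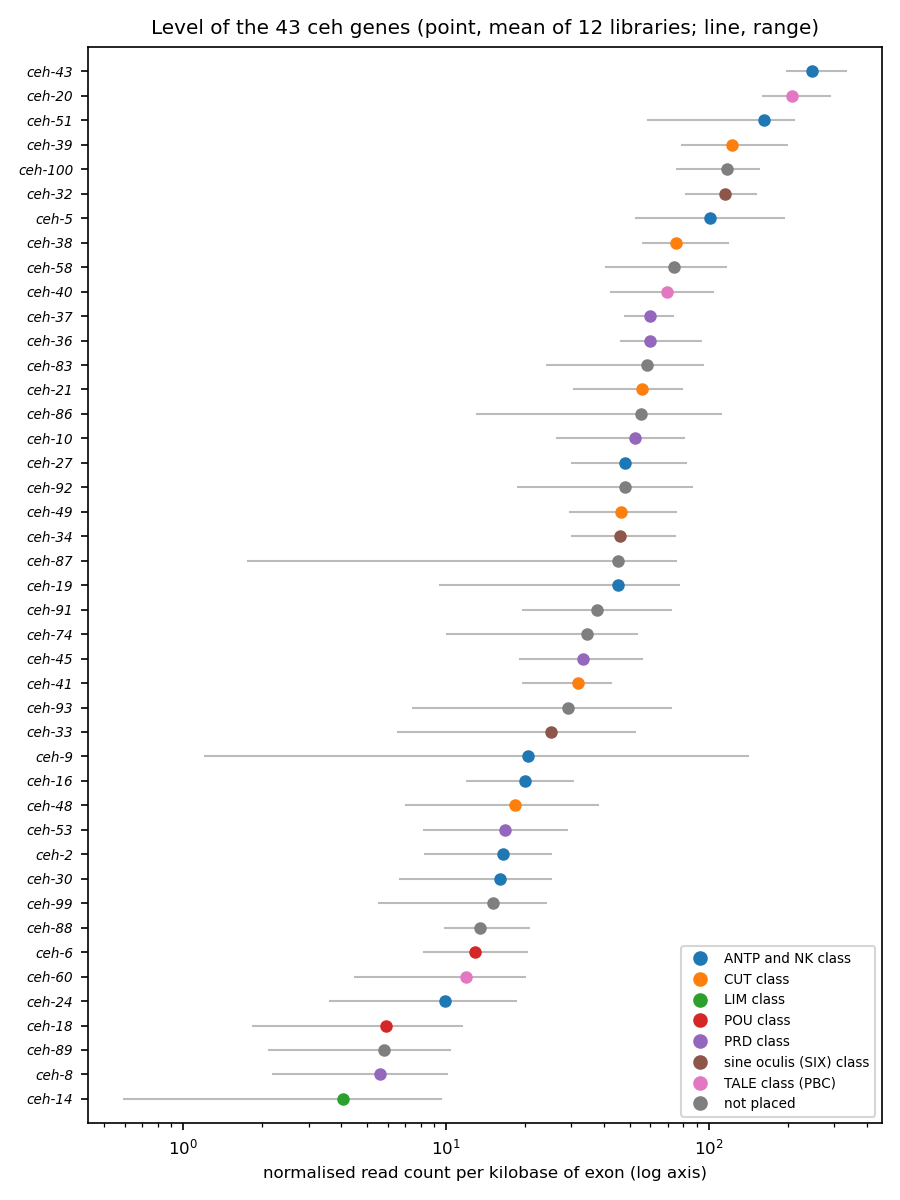
Level of each of the 43 ceh genes per kilobase of exon, on a log axis; points are means of the 12 libraries, lines run from the lowest to the highest library, and colours give the homeobox class. The means run from 4.05 for ceh-14 to 246 for ceh-43, and ceh-9 and ceh-87 have the widest lines.

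By class, the filter kept all 6 CUT genes measured, all 3 sine oculis genes, all 3 PBC genes, both POU genes and the LIM gene, 6 of 8 PRD genes, 10 of 16 ANTP and NK genes and 12 of 22 genes placed in no class here. Of the placed classes, CUT had the most genes with a mean of at least 100, with ceh-39 at 226, ceh-38 at 215 and ceh-21 at 144 normalised counts. In the other classes the highest mean belonged to ceh-20 (PBC) at 264.5, ceh-43 (ANTP and NK) at 259, ceh-32 (sine oculis) at 215, ceh-37 (PRD), an Otx-type gene of the AWB neuron, at 88.8, ceh-6 (POU), which acts in the excretory cell, at 23.1, and ceh-14 (LIM) at 7.71.

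A gene was called at a limma adjusted p under 0.05, adjusted over all 14640 genes, and differences are of log2(value + 1), so that those of low genes are understated. With 12 libraries, 3 of 43 ceh genes were called in hpl-2 I158A against N2, beside 4.0% of all genes. All 3 were lower, beside 3.09% of all genes called lower. In hpl-2 I158A against hpl-2, 4 ceh genes were called, 2 higher and 2 lower, beside 7.84% of all genes, 3.59% higher and 4.25% lower. The members' shares, 6.98% and 9.30%, lay near those of all genes, so the counts are not a result about the family.

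In the other comparisons limma called 0 of 43 ceh genes with 12 libraries. The share of all genes called was 0.608% for hpl-2 against N2, 0.0956% for lin-61, 0.273% for lin-61 hpl-2 and 0.328% for the triple mutant, each against N2. It was 0.13% for lin-61 hpl-2 against hpl-2 and 0.0273% for lin-61 hpl-2 against lin-61. At an unadjusted p under 0.05, 5, 3, 5 and 3 ceh genes passed against N2, in that order, and 9 and 4 in the comparisons of the double mutant with hpl-2 and lin-61. Of all genes, 15%, 9.5%, 9.54% and 15% passed against N2, and 18.5% and 12.6% for the double mutant against hpl-2 and lin-61. In each of these 6 comparisons edgeR called 0 ceh genes. DESeq2 called 2 for the double mutant against hpl-2 and 1 for the double mutant against lin-61. It called 1 for hpl-2 against N2 and 0 in the other 3. The matching shares of all genes are not given here, so the edgeR and DESeq2 counts are no result about the family.

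Without triple-mutant replicate 2, more ceh genes were called in each comparison that does not use that genotype, and 0 again for the triple mutant against N2. In the fit all genotypes share 1 estimate of each gene's spread. The median residual SD over all genes was 0.458 log2 units with 12 libraries and 0.314 without that library, and over the ceh genes it was 0.352 and 0.327. It did not fall for every gene, with 0.372 and 0.382 for ceh-86, and the part of the spread in the added calls was not tested. In this 11-library fit, 4 ceh genes were called for hpl-2, all lower, beside 14.4% of all genes and 8.7% lower. For hpl-2 I158A 10 were called, 8 lower and 2 higher, beside 22% of all genes, 12.9% lower and 9.17% higher. For lin-61 1 was called, lower, beside 6.19% and 3.09% lower. For lin-61 hpl-2 3 were called, 2 higher and 1 lower, beside 5.01%, 2.86% higher and 2.15% lower. Leaving out replicate 1 of the triple mutant instead gave the same calls of ceh genes in the comparisons that do not use that genotype. Either omission leaves that genotype with 1 library, so the differences and residuals of the other genotypes are the same in both fits. The agreement was thus largely fixed in advance and adds no support. In all, 21 ceh genes were called in at least 1 comparison of 2 genotypes in either fit and 22 in none. The matching share of all genes was not counted, so these numbers are no result about the family.

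More ceh genes lay below N2 than above it in every mutant, by small amounts, as the heatmap of differences shows. The median log2 difference over the 43 genes was -0.33 for hpl-2 I158A, -0.19 for hpl-2, -0.16 for lin-61 hpl-2 and -0.15 for lin-61, where the median over all genes was 0.03, 0.03, 0.01 and 0.02. For the triple mutant it was -0.04, beside -0.01 over all genes. Under TMM scaling it was 0.07 beside 0.10 over all genes, and without replicate 1 it was 0.12 beside 0.08. Of the 43 genes, 32 lay below 0 in hpl-2 I158A, 29 in lin-61 hpl-2, 28 in lin-61, 27 in hpl-2 and 26 in the triple mutant, where without replicate 1 only 17 did. The comparisons share the N2 libraries.

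**Figure D2:**
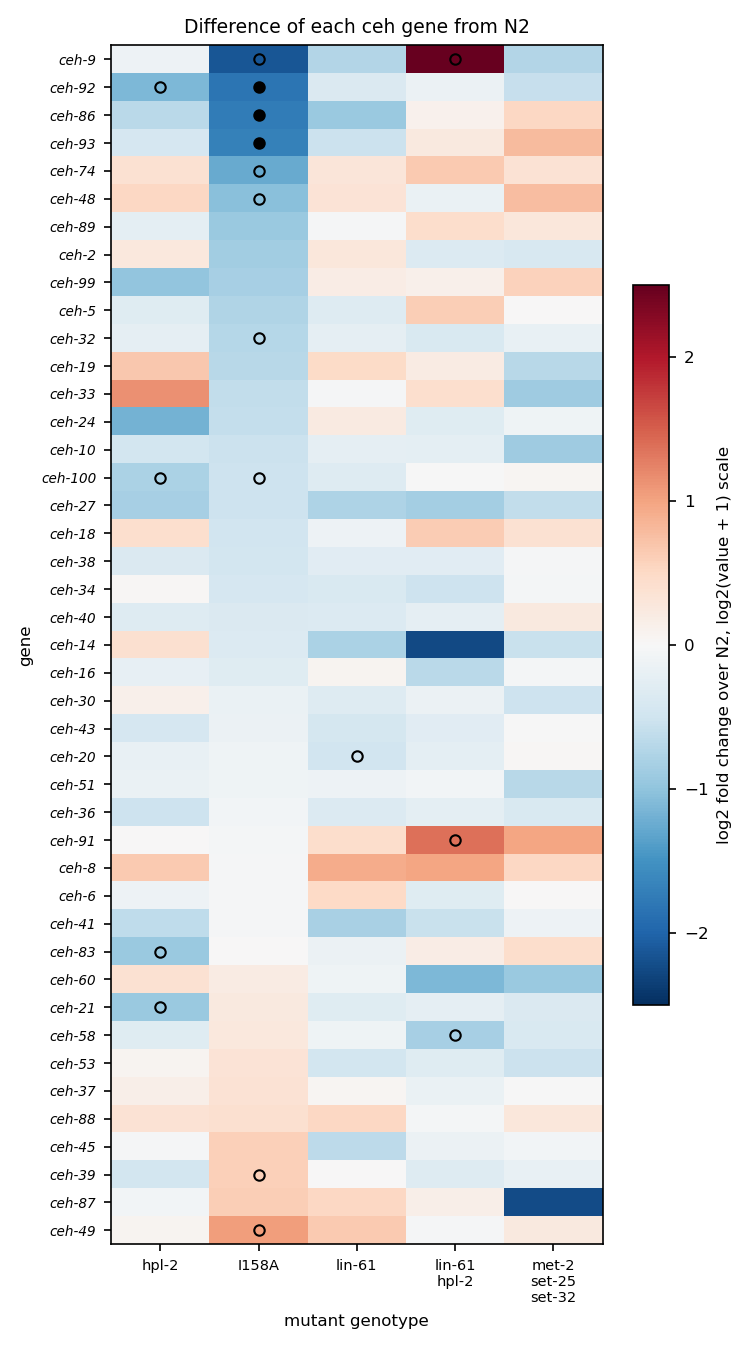
Log2 fold change over N2, on the log2(value + 1) scale, of each of the 43 ceh genes (rows) in each mutant genotype (columns); filled circles mark limma calls with 12 libraries and open circles calls added without triple-mutant replicate 2. The filled circles are the 3 lower genes of hpl-2 I158A, ceh-92, ceh-86 and ceh-93, and the darkest cells are ceh-9 in lin-61 hpl-2 at 2.71, ceh-14 in lin-61 hpl-2 at -2.26, ceh-87 in the triple mutant at -2.23 and ceh-9 in hpl-2 I158A at -2.15.

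In hpl-2 I158A, the 3 ceh genes that fell against N2 were ceh-92, ceh-86 and ceh-93, none of which is placed in a class here. ceh-92, on chromosome III from 11581600 to 11589133 (WBcel235), had 210.3 and 130.4 normalised counts in the N2 libraries and 46.2 and 45.9 in the hpl-2 I158A libraries. The groups did not overlap, and the hpl-2 I158A libraries were the lowest of all 12. The level was 3.54-fold lower (log2 -1.82, SE 0.44, limma adjusted p = 0.0470), and 6 of 19 alternatives of the processing passed, with adjusted p from 0.000371 to 0.261. The other genotypes lay between hpl-2 I158A and the higher N2 library, with 78.99 and 71.7 in hpl-2, 141.9 and 118 in lin-61, 106 and 208 in the double mutant and 177 and 69.4 in the triple mutant.

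ceh-86, on chromosome II from 2426366 to 2432072, had 184 and 149 in N2 against 32.8 and 72.3 in hpl-2 I158A. Again the groups did not overlap and the mutant pair was the lowest of all libraries, although its replicates differed more than 2-fold. The level was 3.34-fold lower (log2 -1.74, SE 0.34, limma adjusted p = 0.0229), and 12 of 19 alternatives passed, with adjusted p from 0.000436 to 0.188. In the other genotypes ceh-86 had 97.1 and 109 in hpl-2, 89.9 and 83.6 in lin-61, 163 and 197 in the double mutant and 204 and 279 in the triple mutant. Both single mutants lay below N2, the double mutant overlapped N2, and the triple mutant lay above it.

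ceh-93, on chromosome X from 384385 to 388797, had 60.7 and 42.6 in N2 against 12.5 and 18.3 in hpl-2 I158A. It was 3.21-fold lower (log2 -1.68, SE 0.36, limma adjusted p = 0.0339), and 8 of 19 alternatives passed, with adjusted p from 0.000726 to 0.260. All 10 other libraries lay above the hpl-2 I158A pair. They held 39.97 and 35.4 in hpl-2, 34.7 and 34.5 in lin-61, 60.5 and 59.97 in the double mutant and 65.1 and 120.1 in the triple mutant, which had the highest level of all.

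Beside these 3 genes, 4 of the 12 neuronal marker genes were called lower and 7 of the 12 maternal genes called higher in hpl-2 I158A with 12 libraries, and 7 lower and 11 higher without triple-mutant replicate 2. The median log2 difference was -1.12 over the neuronal list and 1.20 over the maternal list. The pharynx muscle gene tni-4 was called lower in both fits, and 5 of the 9 epidermal markers were called higher without triple-mutant replicate 2. The part of these markers in the changes of the ceh genes was not tested.

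**Figure D3:**
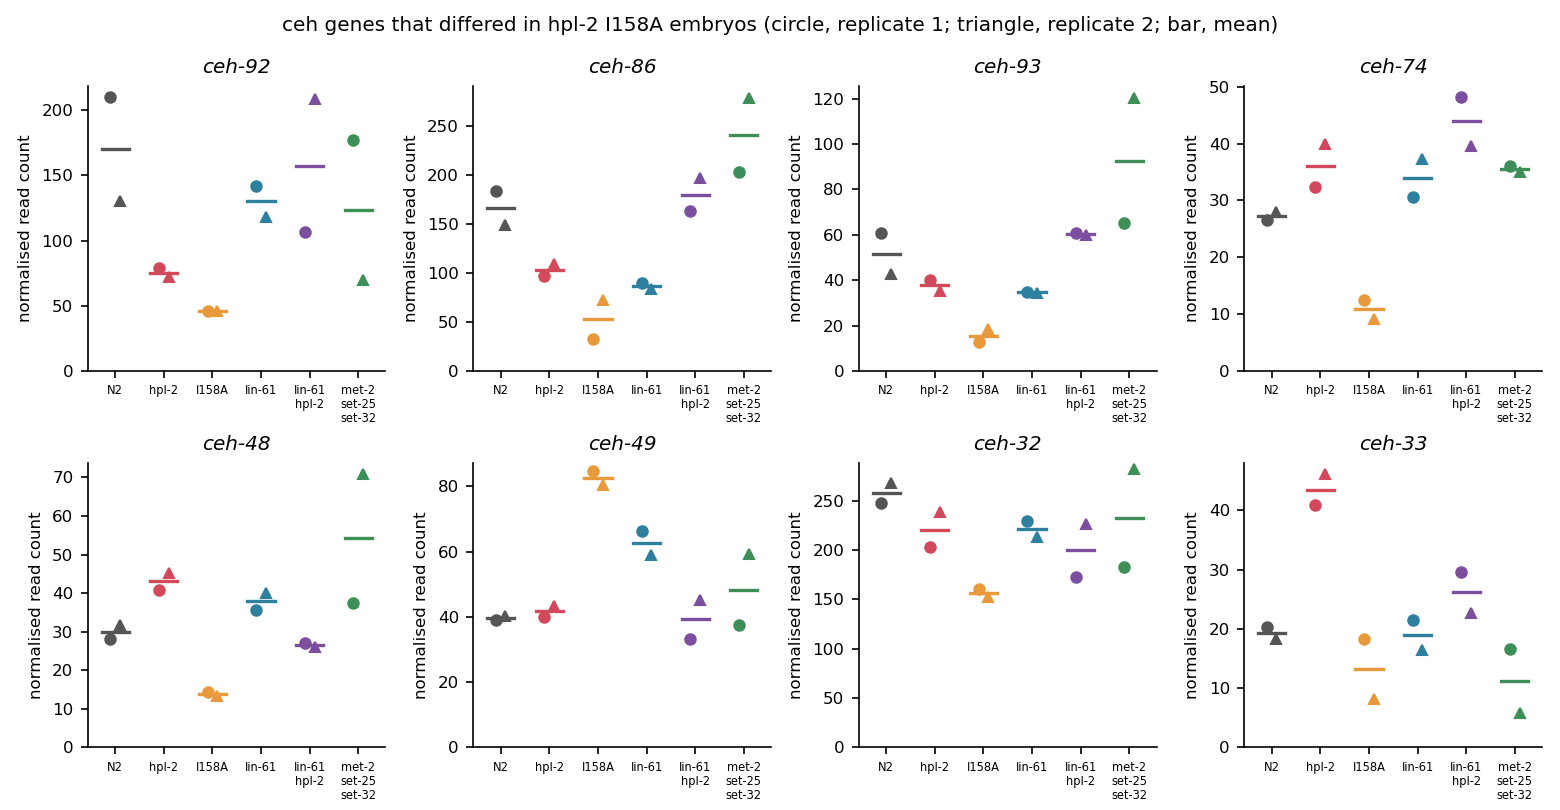
Normalised read count of 8 ceh genes in all 12 libraries by genotype; circles are replicate 1, triangles replicate 2 and bars the mean of both. The hpl-2 I158A libraries are the lowest for ceh-92, ceh-86, ceh-93, ceh-74, ceh-48 and ceh-32 and the highest for ceh-49.

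Without triple-mutant replicate 2, 7 further ceh genes passed the limma test in hpl-2 I158A against N2. Of these, 5 were lower. ceh-74 had 26.5 and 28.03 in N2 against 12.5 and 9.17 in hpl-2 I158A, a log2 difference of -1.27, and the 10 other libraries held 26.5 to 48.2. ceh-48, the ONECUT gene active throughout the nervous system, had 28.04 and 31.7 in N2 against 14.4 and 13.2 in hpl-2 I158A, a difference of -1.05. For both genes the hpl-2 I158A libraries lay below every other library.

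ceh-32 had 248 and 268 in N2 against 161 and 153 in hpl-2 I158A (-0.71), and ceh-100, the most abundant ceh gene by counts, had 619.9 and 549.6 and 439 and 377 (-0.52). The last of the 5 was ceh-9, which had 6.23 and 9.75 in N2 against 0.963 and 1.02 in hpl-2 I158A, where each value was a single read. By counts, the level in hpl-2 I158A was 12.1% of that in N2, with a 95% interval of 1.31 to 54.2% that covers counting error only. The size of the ceh-9 difference is therefore loosely known, while the N2 and mutant libraries did not overlap.

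The 2 that were higher were both CUT genes. ceh-49 had 38.9 and 40.2 in N2 against 84.8 and 80.5 in hpl-2 I158A, 2.06-fold higher, and every other library held 33.4 to 66.4. ceh-39 had 229 and 224 in N2 against 363 and 328 in hpl-2 I158A, 1.52-fold higher, and the other libraries reached at most 247. The log2 differences were 1.04 and 0.61, with a limma adjusted p of 0.00767 and 0.0375 in this fit and of 0.0885 and 0.225 with 12 libraries. Over all alternatives the adjusted p ran from 0.00673 to 0.381 for ceh-49 and from 0.0351 to 0.612 for ceh-39.

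The largest differences of hpl-2 I158A that passed in neither fit were those of ceh-89, at 4.82 and 3.06 against 6.23 and 10.97 in N2, ceh-2, the EMX-type gene of the M3 pharyngeal neuron, at 8.67 and 7.13 against 18.7 and 12.2, and ceh-99, at 13.5 and 16.3 against 26.5 and 28.03. All 3 had lower values in both hpl-2 I158A libraries than in either N2 library. At these levels the values rest on 3 to 23 reads per library.

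Set against the hpl-2 mutant in place of N2, 3 of the 4 ceh genes called in hpl-2 I158A with 12 libraries were CUT genes. ceh-21 and ceh-39 rose and ceh-48 fell, and ceh-49 was higher without triple-mutant replicate 2. The remaining gene called with 12 libraries was ceh-74, which fell.

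The CUT genes ceh-41, ceh-21 and ceh-39 lie side by side on the minus strand of chromosome X between 1846608 and 1856172. There are 103 bases between ceh-41 and ceh-21 and 1137 between ceh-21 and ceh-39. ceh-21 had 96.1 and 79.7 in hpl-2 and 204 and 194 in hpl-2 I158A. The 2 groups lay at opposite ends of the 12 libraries, with N2 at 179 and 156 between them. The difference was 2.26-fold (log2 1.18, SE 0.26, limma adjusted p = 0.0273), and 11 of 19 alternatives passed, with adjusted p from 2.09e-05 to 0.200.

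Its neighbour ceh-39 had 185 and 145 in hpl-2 and 363 and 328 in hpl-2 I158A, 2.10-fold higher (log2 1.07, SE 0.26, limma adjusted p = 0.0355), and 11 of 19 alternatives passed, with adjusted p from 5.37e-05 to 0.243. Both hpl-2 I158A libraries were above all 10 others for ceh-39. ceh-41 had 38.1 and 32.8 in hpl-2 against 50.1 and 59.1 in hpl-2 I158A and 54.5 and 56.1 in N2. The groups of hpl-2 and hpl-2 I158A did not overlap for ceh-41 either, but its log2 difference of 0.61 did not pass (limma adjusted p = 0.214). In lin-61, where none of the 3 genes passed in either fit, ceh-41 was at 35.7 and 27.3 and ceh-21 at 151 and 121, both below the N2 libraries, and ceh-39 at 247 and 213 overlapped N2.

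**Figure D4:**
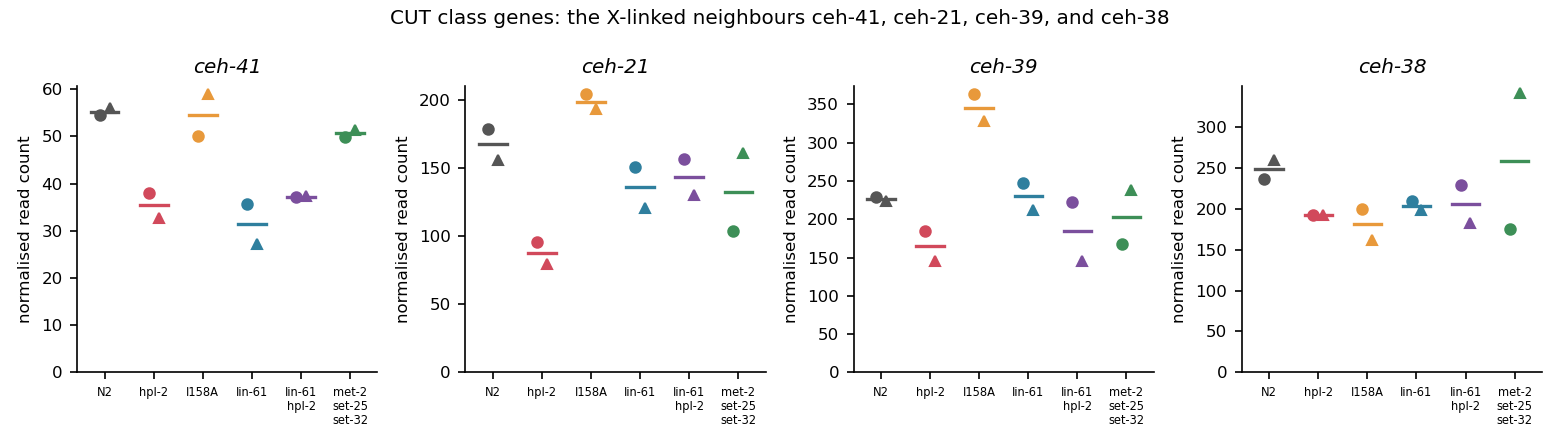
Normalised read count of 4 CUT genes in all 12 libraries by genotype; circles are replicate 1, triangles replicate 2 and bars the mean of both. ceh-21 and ceh-39 are highest in hpl-2 I158A, and ceh-21 is lowest in hpl-2.

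ceh-48 had 40.9 and 45.2 in hpl-2 and 14.4 and 13.2 in hpl-2 I158A, 2.96-fold lower (log2 -1.57, SE 0.36, limma adjusted p = 0.0304). Of the alternatives 10 of 19 passed, with adjusted p from 6.78e-05 to 0.200. ceh-74 had 32.4 and 39.9 in hpl-2 and 12.5 and 9.17 in hpl-2 I158A, 3.15-fold lower (log2 -1.65, SE 0.34, limma adjusted p = 0.0203). It passed in 15 of 19 alternatives, with adjusted p from 8.97e-05 to 0.176. For both genes the groups were far apart and hpl-2 lay above N2.

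Without triple-mutant replicate 2, 12 ceh genes were called between hpl-2 I158A and hpl-2, 4 higher and 8 lower, beside 29.9% of all genes, 14.4% higher and 15.5% lower. The 4 higher were ceh-21, ceh-39, ceh-49 (0.97 on the log2 scale) and ceh-83 (0.93). The 8 lower were ceh-48, ceh-74, ceh-9 (-2.01), ceh-33 (-1.74), ceh-19 (-1.37), ceh-93 (-1.26), ceh-86 (-1.06) and ceh-32 (-0.48). ceh-33 had 40.9 and 46.1 in hpl-2 against 18.3 and 8.15 in hpl-2 I158A and 20.2 and 18.3 in N2. ceh-19, which acts in the MC pharyngeal neuron, had 70.4 and 48.7, 29.9 and 16.3 and 54.5 and 24.4 in the same order, with wide gaps between replicates. In this comparison 5 of the 12 neuronal markers and the pharynx muscle gene tni-4 were called lower with 12 libraries, and 10 of the 12 maternal genes higher. Their part in the changes of the ceh genes was not tested.

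In the hpl-2 mutant itself, 4 ceh genes were lower than in N2 without triple-mutant replicate 2. ceh-100 had 619.9 and 549.6 in N2 against 321 and 357 in hpl-2, 1.72-fold lower, with a limma adjusted p of 0.00144 in this fit and 0.0876 with 12 libraries. The hpl-2 libraries were the lowest of all 12 for ceh-100. It was also the ceh gene called here by DESeq2 with 12 libraries. Over all alternatives its adjusted p ran from 0.00119 to 0.546.

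ceh-21 had 179 and 156 in N2 against 96.1 and 79.7 in hpl-2, 1.90-fold lower. ceh-83 had 121 and 95.05 and 71.4 and 44.3, 1.90-fold lower, and ceh-92 had 210.3 and 130.4 and 78.99 and 71.7, 2.18-fold lower. In each the N2 and hpl-2 libraries did not overlap. ceh-83 was lowest in hpl-2 among all libraries, while ceh-92 was lower still in hpl-2 I158A and, in 1 library, in the triple mutant. For ceh-92 and ceh-100, hpl-2 and hpl-2 I158A lay on the same side of N2, while hpl-2 I158A lay above N2 for ceh-21 and overlapped N2 for ceh-83, at 204 and 194 and 118 and 98.8.

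Among the larger differences of hpl-2 that passed in neither fit, ceh-24, an NK-2 gene of vulval and pharyngeal muscle, had 7.79 and 19.5 in N2 against 3.81 and 6.20 in hpl-2, and ceh-99 had 26.5 and 28.03 and 18.1 and 9.74. ceh-27, another NK-2 gene, had 71.7 and 97.5 and 39.97 and 54.02, and its values in the 10 mutant libraries ran from 35.8 to 72.97, so that 1 of them was above the lower N2 library. ceh-33 had the largest higher value, 40.9 and 46.1 against 20.2 and 18.3 in N2, with a log2 difference of 1.13 and a limma adjusted p of 0.350.

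In lin-61 hpl-2, ceh-9 stood out by size. It had 112 and 28.3 normalised counts there and 0.963 to 12.4 in the 10 other libraries. Both double mutant libraries lay above all others, but they were themselves far apart. The log2 difference was 2.71 against N2, 2.84 against hpl-2 and 3.44 against lin-61, with SEs of 0.89 in each and limma adjusted p of 0.345, 0.145 and 0.188. None passed with 12 libraries, and all 3 passed without triple-mutant replicate 2, at 0.0414, 0.0138 and 0.00953. Over all alternatives the adjusted p ran from 0.0414 to 1.0 against N2, from 0.00647 to 0.546 against hpl-2 and from 0.00391 to 0.894 against lin-61.

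ceh-91, which lies 27612 bases after ceh-92 on the same strand of chromosome III, had 156 and 130.1 in the double mutant. The N2 libraries held 65.4 and 45.1, against 69.5 and 42.5 in hpl-2, 84.8 and 64.5 in lin-61 and 57.8 and 47.9 in hpl-2 I158A. The double mutant libraries were the highest of all 12, and the nearest other value was 127 in the triple mutant. The level was 2.59-fold above N2, with a limma adjusted p of 0.161 with 12 libraries and 0.0132 without triple-mutant replicate 2, and from 0.0116 to 0.852 over all alternatives. The third ceh gene called against N2 in that fit was ceh-58, which was lower, at 61.8 and 47.5 against 101 and 92.6 in N2.

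**Figure D5:**
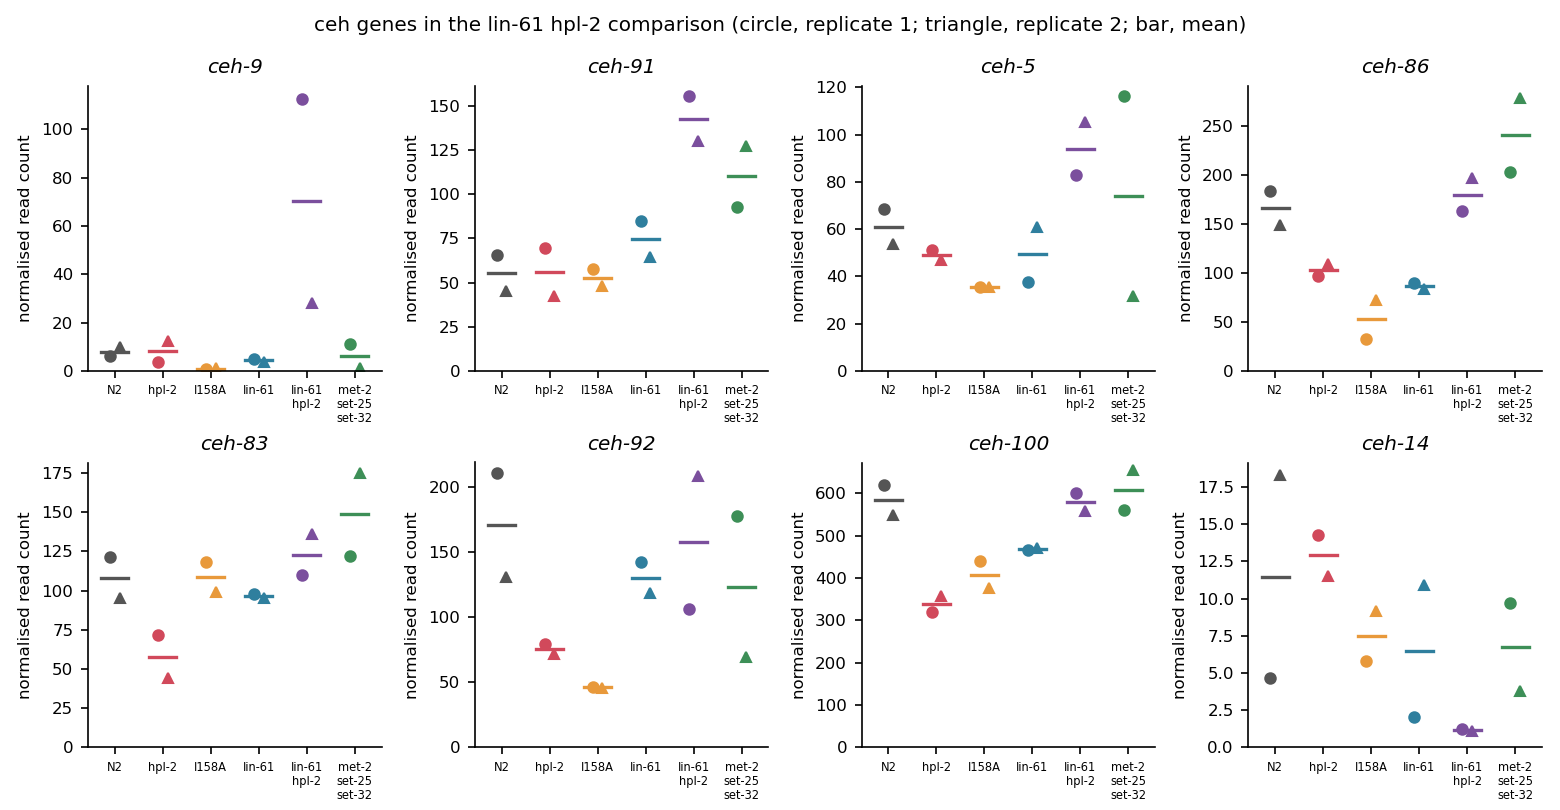
Normalised read count of 8 ceh genes in all 12 libraries by genotype; circles are replicate 1, triangles replicate 2 and bars the mean of both. ceh-9 and ceh-91 are highest and ceh-14 is lowest in lin-61 hpl-2.

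Against hpl-2, 10 ceh genes were called in the double mutant without triple-mutant replicate 2, 8 higher and 2 lower, beside 19.5% of all genes, 11% higher and 8.46% lower. The 8 higher were ceh-9, ceh-91, ceh-99 (1.11), ceh-83 (1.11), ceh-92 (0.97), ceh-5 (0.91), ceh-100 (0.77) and ceh-21 (0.70). Of these, ceh-83, ceh-92, ceh-100 and ceh-21 were the 4 genes called lower in hpl-2 against N2, and both comparisons share the hpl-2 libraries. Their levels in the double mutant were 110 and 136 for ceh-83, 106 and 208 for ceh-92, 600.5 and 559 for ceh-100 and 157 and 130.1 for ceh-21. For each of the 4 genes the double mutant and N2 libraries overlapped. In the same comparison and fit, 5 of the 12 maternal genes were called higher, and 4 of the 7 body wall muscle, 3 of the 12 neuronal, 3 of the 9 epidermal, 1 of the 6 pharynx muscle and 1 early zygotic marker were called lower. Their part in the changes of the ceh genes was not tested.

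The 2 lower were ceh-60, a Pbx-type gene that governs yolk genes in the intestine, and ceh-14. ceh-60 had 19.98 and 26.6 in hpl-2 and 6.18 and 9.05 in the double mutant, a log2 difference of -1.50. ceh-14 had 14.3 and 11.5 in hpl-2 and 1.24 and 1.13 in the double mutant, where each value was 1 read. By counts this was 9.20% of the hpl-2 level, with a 95% interval of 1.06 to 36.5% for counting error alone.

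Against lin-61, 4 ceh genes were called in the double mutant in that fit, all higher, beside 9.44% of all genes and 4.96% higher. They were ceh-9, ceh-86 (1.04), ceh-5 (0.95) and ceh-91 (0.94). ceh-5 had 37.8 and 60.9 in lin-61, 51.4 and 46.9 in hpl-2, 68.5 and 53.6 in N2 against 82.8 and 105 in the double mutant. The double mutant lay above these 3 genotypes, and the triple mutant held both higher and lower values, 116 and 31.8. ceh-86 had 89.9 and 83.6 in lin-61 and 163 and 197 in the double mutant, which overlapped N2.

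Non-additivity of the 2 mutations was tested as the double mutant minus hpl-2 minus lin-61 plus N2 on the log2 scale, a contrast added after the values had been seen. With 12 libraries limma called 0 of 43 ceh genes, beside 1.73% of all genes. At an unadjusted p under 0.05, 6 ceh genes passed, beside 18.5% of all genes. edgeR called 0 ceh genes, beside 176 genes in all, and DESeq2 called 2, ceh-86 and ceh-100, beside 610. Without triple-mutant replicate 2, 7 were called, all with positive values, beside 20.2% of all genes and 11% positive. They were ceh-9, ceh-86, ceh-92, ceh-83, ceh-5, ceh-100 and ceh-21. Of the cell type markers, the fit called 3 of the 7 body wall muscle genes (myo-3, hlh-1 and lev-11), the neuronal snb-1 and the epidermal elt-3 and noah-1 with negative values, and fbn-1 and act-5 with positive ones. Their part in the interactions of the ceh genes was not tested. The interaction of ceh-86 was 1.72 and that of ceh-100 was 1.09: both genes lay below N2 in each single mutant and overlapped N2 in the double mutant.

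Among the other large differences of the double mutant from N2, none passed in either fit. ceh-14 had 4.67 and 18.3 in N2, so that 1 N2 library was much nearer the double mutant than the other, and ceh-60 had 15.6 and 19.5. ceh-8 had 7.41 and 12.4 against 3.12 and 6.09, ceh-27 had 35.8 and 58.8 against 71.7 and 97.5, and ceh-16, the engrailed gene of the seam epidermis, had 11.1 and 13.6 against 28.04 and 14.6. ceh-74 had 48.2 and 39.6 against 26.5 and 28.03, and ceh-18 had 18.5 and 20.4, inside the N2 range of 4.67 and 29.2.

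In lin-61, 1 ceh gene was called against N2 without triple-mutant replicate 2, in a fit that also called 3 of the 12 maternal genes higher. It was ceh-20, the Hox cofactor gene, with 296 and 291 in N2 against 205 and 214 in lin-61. The lin-61 libraries were the lowest of all 12, and the level was 1.40-fold lower (log2 -0.49), with a limma adjusted p of 0.0434 in that fit, 0.511 with 12 libraries and from 0.0416 to 1.0 over all alternatives. Larger but less precise differences were those of ceh-8 (13.3 and 6.36 against 3.12 and 6.09 in N2), ceh-86, ceh-41 and ceh-45, a goosecoid-type gene, with 18.4 and 16.4 against 35.8 and 21.9. ceh-49 had 66.4 and 59.1 and ceh-88 had 40.8 and 38.2, both above the N2 libraries. None of these 6 passed in either fit, nor did ceh-14, ceh-27, ceh-9 and ceh-93, at 2.04 and 10.9, 40.8 and 58.2, 5.11 and 3.63 and 34.7 and 34.5 in lin-61.

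In the met-2 set-25 set-32 triple mutant, which of the 2 libraries is used decides the calls. With both, 0 of 43 ceh genes were called. With replicate 1 alone the median log2 difference from N2 was -0.08 over the ceh genes, beside 0.03 over all genes. With replicate 2 alone, 10 were called, 3 higher and 7 lower, beside 35.6% of all genes, 12.7% higher and 22.9% lower. In both cases the lone library is assumed to vary like the other genotypes. ceh-87 had the widest gap: it held 15.2 and 1.11 in the triple mutant and 19.5 to 47.3 in the 10 other libraries, so that replicate 1 lay just below the rest and replicate 2 far below.

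The other 6 that were lower with replicate 2 alone were ceh-19, ceh-51, ceh-33, ceh-10, ceh-92 and ceh-5. ceh-51 had 159 and 45.6 in the triple mutant and 153 and 127 in N2, and ceh-19 had 54.04 and 8.68 and 54.5 and 24.4. ceh-10, the Chx10-type gene of the AIY and CAN neurons, had 54.04 and 29.8 and 90.3 and 63.4. Replicate 1 lay above both N2 libraries for ceh-51 and between them for ceh-19, and replicate 2 lay below both N2 libraries for both genes. For ceh-10 both libraries lay below N2.

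The 3 that were higher with replicate 2 alone were ceh-48, ceh-93 and ceh-91. ceh-91 had 92.8 and 127, ceh-93 65.1 and 120.1 and ceh-48 37.4 and 70.97, against 65.4 and 45.1, 60.7 and 42.6 and 28.04 and 31.7 in N2. In all 3, both libraries of the triple mutant lay above both N2 libraries, and with both libraries the log2 differences were 0.99, 0.79 and 0.77, with limma adjusted p of 0.233, 0.338 and 0.342. ceh-60 and ceh-9 were among the larger differences that passed under neither choice, at 12.5 and 6.01 and 11.1 and 1.33. TMM scaling raised the median of all genes in this comparison by 0.11 and turned the sign of 7 ceh genes.

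Several genes of known roles passed in no comparison. ceh-43 had 208 to 350.4 in the 12 libraries with log2 differences from N2 between -0.44 and -0.02. ceh-38, a ONECUT gene, had 162 to 341, the extremes being hpl-2 I158A replicate 2 and triple mutant replicate 2. ceh-37 had 71.7 to 109, and ceh-36, the Otx-type gene of the AWC and ASE neurons, had 54.02 to 109. ceh-34, which acts in pharyngeal neurons, had 33.6 to 82.6. ceh-40, a Pbx-type gene, had 49.9 to 123, ceh-53 6.13 to 21.4, ceh-30, the BarH-type gene of CEM neuron survival, 6.93 to 26.0, and ceh-6 14.8 to 36.3, and none of these 9 genes was called in any comparison of 2 genotypes in either fit.

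The 43 genes are spread over all chromosomes, with 12 on X, 8 on V, 7 on II, 6 each on I and III and 4 on IV. Neighbours did not always move together. ceh-92 fell in hpl-2 I158A, where ceh-91 had 57.8 and 47.9 against 65.4 and 45.1 in N2. ceh-33 and ceh-34, 3616 bases apart on chromosome V, had log2 differences of 1.13 and 0.03 in hpl-2, of which neither passed.

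Of the 43 genes, 11 share exon sequence with a gene on the opposite strand, and the sources used here do not say whether counting used strand. Whether reads of a partner were counted for such a gene was not tested. The shared part was over 10% of the exons for ceh-20, at 10.5% with the non-coding F31E3.8, and for ceh-5, at 12.2% with ocrl-1. F31E3.8 was 35.7 times as high per kilobase as ceh-20, and the non-coding partners of ceh-32 and ceh-37, with 6.77% and 7.05% of the exons shared, were 46.4 and 39.3 times as high. The exons of F31E3.8 lie wholly within those of ceh-20, and its mean was 990 normalised counts against 264 for ceh-20. F31E3.8 was itself lower in lin-61 (log2 -0.50), and the partner of ceh-32 in hpl-2 I158A (-0.42), each against N2. Both passed only without triple-mutant replicate 2, the fit that called ceh-20 and ceh-32 lower there. In that fit F31E3.8 was also lower in hpl-2 and hpl-2 I158A, and the partner of ceh-37 in hpl-2, where ceh-20 and ceh-37 were not called. The partner of ceh-19, mcm-3AP, fell in hpl-2 I158A itself (log2 -1.54, limma adjusted p = 0.0206), and shares 5.34% of the exons of ceh-19. ceh-88 shares 32.5% of its exons with C49C3.6 on the same strand. The values of these genes are to that extent uncertain.

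The other homeobox genes without the ceh prefix were taken from a fixed list of 33, of which 29 passed the filter. With 12 libraries limma called 0 of them in the 8 comparisons of 2 genotypes. The counts that follow are from the fit without triple-mutant replicate 2. Against N2, 1 of 29 was called for hpl-2, beside 14.4% of all genes: unc-62, the Meis-type partner of ceh-20, was lower at a log2 difference of -0.64. For hpl-2 I158A 1 was called beside 22%, zfh-2, higher at 0.72. For lin-61 0 were called beside 6.19%. For the triple mutant 1 was called beside 3.46%, vab-3, the Pax6 gene, lower at -0.92. For lin-61 hpl-2 4 were called beside 5.01%, all lower: unc-62 at -0.64, vab-3 at -0.90, zag-1, a neuronal zinc finger and homeobox gene, at -0.97, and zfh-2 at -0.82.

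Between hpl-2 I158A and hpl-2, 3 of 29 were called beside 29.9% of all genes, unc-62 and hmbx-1 higher and nsy-7 lower. In lin-61 hpl-2 against hpl-2, 7 of 29 were called beside 19.5%: duxl-1 and pal-1 were higher, and zag-1, cog-1, zfh-2, pros-1 and unc-86 lower. Against lin-61, 4 of 29 were called beside 9.44%, all lower: vab-3, zag-1, zfh-2 and unc-86. In the interaction 5 of 29 were called beside 20.2%, with zfh-2 at -1.58, vab-15 at -1.96, pros-1 at -1.55, unc-86 at -1.69 and duxl-1 at 0.68. zfh-2 was also called there with 12 libraries.

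The authors' deposited table of comparisons called the same 3 ceh genes, ceh-86, ceh-92 and ceh-93, in hpl-2 I158A against N2, beside 8.0% of its genes. In the authors' deposited table, 2 ceh genes were called for hpl-2 against N2, ceh-21 and ceh-100, beside 4.29%, and 0 for lin-61, lin-61 hpl-2 and the triple mutant, beside 1.58%, 0.615% and 2.06%. Between hpl-2 I158A and hpl-2 the authors' deposited table called 5, ceh-21, ceh-39, ceh-48, ceh-74 and ceh-33, beside 11.2%. For the double mutant it called 4 against hpl-2, ceh-9, ceh-83, ceh-91 and ceh-100, beside 5.61%, and 1 against lin-61, ceh-9, beside 1.81%. That table was made from these same libraries and is no independent evidence.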

How the data were processed

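RNA from late-stage embryos was measured in 12 libraries of 6 genotypes, 2 libraries each, grouped by title and genotype. Libraries came from poly(A) RNA with a directional dUTP kit, per the labels' protocols. STAR, featureCounts and DESeq2 were used with WBcel235 and ce11, per the submitters' processing notes, and the sources used here give no versions, options or strand setting.

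The main deposited file holds normalised counts, a signal that is never negative. Each value is a read count over the size factor of its library, and 100% of values came back as whole reads within 1e-06. The authors' deposited table of comparisons holds, per the file headers, the log2 fold change with raw and adjusted p-value of every gene between genotypes. Its log2 fold change was turned round here to read mutant over reference.

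Symbols, positions and exon lengths came from the Ensembl 115 annotation of WBcel235, which matched 46817 of 46904 identifiers. The test was limma-trend (limma 3.58.1, R 4.3.3) on log2(normalised count + 1) of the 14640 genes that reached 10 in 2 or more libraries. All 12 libraries were fitted together by genotype alone, and calls needed an adjusted p (Benjamini-Hochberg, over all genes) under 0.05. Recovered reads were also tested with edgeR 4.0.16 and DESeq2 1.42.0. The fit was tested on simulated data, whose outcome is not given here and is no support for the calls. Shares of reads carry exact Clopper-Pearson intervals. Other alternatives were TMM scaling, a pseudocount of 5, no filter, array weights, the replicate number as a block and leaving out each library. The members and lists were chosen with earlier results of these data known. Named were the ceh genes called in either fit, the 10 with the highest mean, the 10 with the largest difference in each mutant against N2, the highest of each class and those nearest the filter; other genes were added to account for all members. No sequences are printed, since the tables used here hold none.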

Additional observations from a re-analysis of the deposited data

Results flagged for a closer look

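Without replicate 2 of met-2 set-25 set-32, limma called the lin-61 by hpl-2 interaction on the log2 scale in 7 ceh genes. An interaction other than 0 would mean that the effect of either mutation differed with the state of the other gene. The contrast was added after the values had been seen, and these calls do not establish such a dependence. The values were 3.57 for ceh-9, 1.72 for ceh-86, 1.33 for ceh-92, 1.26 for ceh-83, 1.24 for ceh-5, 1.09 for ceh-100 and 1.01 for ceh-21. The limma adjusted p ran from 0.00110 for ceh-100 to 0.0320 for ceh-92. With 12 libraries none of the 7 passed, with limma adjusted p from 0.0562 for ceh-100 to 0.378 for ceh-5. Leaving out replicate 1 of the triple mutant in place of replicate 2 called the interaction for 8 ceh genes. The share called, 7 of 43, lay below the 20.2% of all genes called in that fit. In the same fit, 3 of the 7 body wall muscle markers, the neuronal snb-1 and the epidermal elt-3 and noah-1 had negative interactions that passed, and their part in those of the ceh genes was not tested.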

How the results depend on the processing

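Of 51 pairs of a ceh gene and a comparison called in either fit, none changed direction under any of the 19 alternatives. Many of these could not change it. The log2 difference stays the same with no filter, array weights or the block, and when a library of a genotype outside the comparison is left out. The unchanged direction is therefore largely fixed in advance. The counts of called ceh genes moved as follows. For hpl-2 against N2, 0 with 12 libraries became 4 with array weights and 1 with DESeq2, and leaving out single libraries gave 0 to 4. For hpl-2 I158A against N2, 3 became 1 with no filter and 8 with array weights, and 0 to 10 with single libraries left out; it fell to 0 without either N2, hpl-2 or lin-61 library and without hpl-2 I158A replicate 1, and to 1 without hpl-2 I158A replicate 2 or either lin-61 hpl-2 library. For lin-61 and lin-61 hpl-2 against N2, leaving out single libraries gave 0 to 1 and 0 to 3. For the triple mutant it gave 0 to 10, the 10 without its replicate 1. For hpl-2 I158A against hpl-2, 4 became 2 under TMM scaling, 1 with no filter and 16 with array weights, and 0 to 12 with single libraries left out, with 0 without any hpl-2 or hpl-2 I158A library and 1 without either lin-61 library. For lin-61 hpl-2 against hpl-2, 0 became 11 with array weights and 2 with DESeq2, and 0 to 10 with single libraries left out; against lin-61 it became 5, 1 and 0 to 4, and for the interaction 6, 2 and 0 to 8. In the comparisons that do not use the triple mutant, the highest count among fits with 1 library left out came without 1 of its libraries. The shares of all genes called without its replicate 2 are given above. Most counts under the other alternatives stand without such a share, so they are no result about the family. Fewer libraries leave fewer degrees of freedom, and the cause of the other shifts was not tested.

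Same-numbered deviations correlated between -0.08 and 0.16 across genotypes, so little shared effect of the replicate number was seen. This cannot show whether same-numbered libraries were prepared together. With the replicate number as a block, 2 ceh genes were called in hpl-2 I158A against N2 and 4 against hpl-2, and 0 elsewhere. Depth limits the low genes: in N2, 3 reads are worth 3.66 to 4.67 normalised counts, near the mean of ceh-8 there, 4.60.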
